A study of Mus musculus with 4 samples.

Results

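The genes described here are 10 receptors and transcription factors that mark natural killer cells, found by their symbols among the 24784 rows of a deposited RPKM table. They are the lectin-like receptor genes Klrk1, Klrb1c, Klrd1, Klrc1, Klre1 and Klrg1, the natural cytotoxicity receptor gene Ncr1, the cytokine receptor gene Il2rb and the T-box transcription factor genes Eomes and Tbx21. All 10 were found. Polyadenylated RNA came from cells labelled tumour-associated macrophages, which were flow-sorted out of the livers of tumour-bearing male mice, 6 to 8 weeks old. There were 2 libraries of the genotype labelled Control and 2 of OXCT1mKO, whose name points to Oxct1, and the treatment label of all 4 reads i.pv. Hepa 1-6, Hepa 1-6 being a mouse hepatoma line. Not given in the sources used here are how the OXCT1mKO genotype was made, the mouse strain, the antibodies of the sort and whether each library came from its own animal. The p-values below therefore measure only the spread between these libraries, which may be technical.

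Natural killer cells are lymphocytes that kill without a rearranged antigen receptor. They weigh signals from activating receptors, which sense stress-induced ligands on target cells, against signals from inhibitory receptors, which sense class I molecules or cadherins. The T-box factors direct their development together with IL-15, and the liver holds 2 related populations, conventional natural killer cells, which express Eomes, and type 1 innate lymphoid cells, which are known to lack it. Several of these genes, receptors and transcription factors alike, are also expressed by T cells. In bulk RNA, fewer cells of a type cannot be told apart from less RNA per cell.

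The libraries were first checked. RPKM sums ranged from 325034 to 377575, and the absolute read depth is unknown. Ratios among low values placed the relative depths between 0.911 and 1.03, with control 1 set to 1. Oxct1, the gene named in the genotype, measured 19.3 and 20.3 RPKM in control and 14.7 and 15.4 RPKM in OXCT1mKO (log2 fold change -0.37 ± 0.09 SE, limma adjusted p 0.0346). The 15 macrophage markers were all present, with summed levels of 2228 and 1628 RPKM in control 1 and control 2 and 1851 and 1932 RPKM in OXCT1mKO 1 and OXCT1mKO 2, and 8 rose while Lyz2 fell. Lyz2 alone measured 688 and 744 RPKM in control 1 and control 2 and 8.76 and 6.52 RPKM in OXCT1mKO. It made up a large part of the control sums only, so the sums do not show a level macrophage content. Cells other than macrophages contributed RNA too. The 14 T cell markers, 0 of them at 0 RPKM in any library, summed to 306 and 198 RPKM in control 1 and control 2 against 71.0 and 128 RPKM in OXCT1mKO 1 and OXCT1mKO 2. The controls stood apart in B cell markers, which summed to 25.7 and 164 RPKM in control 1 and control 2 against 81.9 and 99.9 RPKM in OXCT1mKO and were lowest in control 1 for 9 of 9 genes. Neutrophil markers summed to 173 and 1343 RPKM in control and 592 and 410.4 RPKM in OXCT1mKO. Of 7 hepatocyte markers, Cps1 and Cyp3a11 rose and Fgb fell. The part of these cells in the results below was not tested. Globin rows took 8.81% of all RPKM in control 1 and 0.132% to 0.327% in the other libraries.

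The 10 genes were expressed at low to middling levels in these sorts. RPKM is a value per gene length, so levels can be ordered between genes. Averaged over the 4 libraries, Il2rb led with 22.0 RPKM, followed by Klrd1 with 9.88, Klrc1 with 5.83, Klrk1 with 4.73, Klre1 with 4.44 and Tbx21 with 3.48 RPKM. Eomes had a mean of 1.55, Klrb1c of 1.52, Ncr1 of 1.16 and Klrg1 of 0.789 RPKM. Il2rb was the only gene whose range over libraries lay clear of that of the next in order. The ranges of all other neighbours in this order overlapped. Klrk1 ranked 6 of 10 by its mean in the controls and 3 of 10 in OXCT1mKO, while Eomes went from rank 7 to rank 9.

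**Figure D1:**
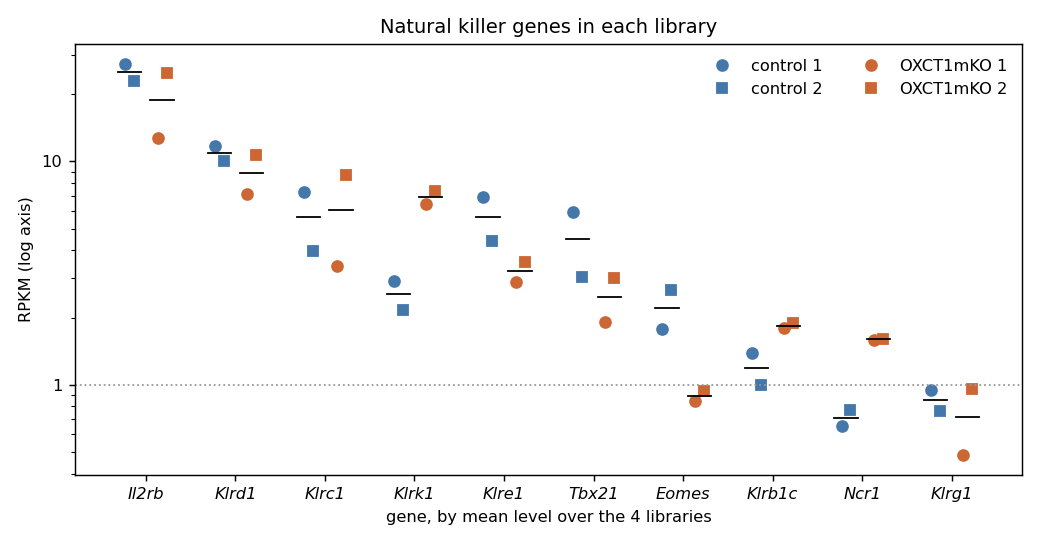
RPKM of the 10 natural killer genes (log axis) in each of the 4 libraries, with bars at the group means and a dotted line at 1 RPKM. Both OXCT1mKO libraries lie above both controls for Klrk1, Ncr1 and Klrb1c and below both for Klre1, Tbx21 and Eomes.

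The comparison asked how these genes differed between sorts from OXCT1mKO and control mice. Klrk1 and Ncr1, which encode activating receptors, rose, and Eomes fell. The other 6 tested genes did not pass the threshold, and Klrg1 was too low to be tested. A gene was tested with limma on log2(RPKM + 1) where its mean over the 4 libraries was at least 1 RPKM, and was called at a Benjamini-Hochberg adjusted p under 0.05 over all genes tested. So 3 of 9 tested genes were called, 2 upward and 1 downward. That share is near the background, since 32.8% of all 12523 tested genes were called, 16.4% upward and 16.4% downward. The groups did not overlap for 6 of the 9, against 74.7% of all tested genes. Of these, 3 were higher in OXCT1mKO, against 37.6% of all tested genes, and 3 lower, against 37.0%. The median log2 fold change of the 9 was -0.28, against 0.0045 over all tested genes. The genes thus went in both directions.

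Among the activating receptors, Klrk1 encodes NKG2D, which binds stress-induced ligands of the Rae1, H60 and Ulbp1 families. In the GENCODE annotation of build GRCm38, Klrk1 lies on the minus strand at chr6:129610323-129623864, and no other annotated gene overlaps it. Control 1 and control 2 had 2.93 and 2.16 RPKM, and OXCT1mKO 1 and OXCT1mKO 2 had 6.44 and 7.39 RPKM. Both OXCT1mKO libraries were thus well above both controls. The means were 2.54 ± 0.542 and 6.92 ± 0.668 RPKM (SD, n = 2), a ratio of 2.72. The log2 fold change was 1.17 ± 0.15 (SE, 95% interval 0.77 to 1.56) with a limma adjusted p of 0.013.

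Ncr1 encodes NKp46, an activating receptor largely restricted to natural killer cells and innate lymphoid cells. It lies on the plus strand at chr7:4337724-4345164. The controls had 0.656 and 0.77 RPKM, and the OXCT1mKO libraries had 1.59 and 1.61 RPKM. The groups did not overlap, and the OXCT1mKO libraries were close to each other. The mean rose from 0.713 ± 0.0805 to 1.60 ± 0.0152 RPKM (SD, n = 2), a ratio of 2.24. On the log2(RPKM + 1) scale, which understates changes of genes this low, the fold change was 0.60 ± 0.14 (SE, 95% interval 0.24 to 0.97, limma adjusted p 0.034), and with a pseudocount of 0.1 it was 1.07.

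Klrb1c, which encodes the antigen NK1.1, an activating receptor used to sort natural killer cells, lies on the minus strand at chr6:128778485-128789215. The controls had 1.38 and 0.997 RPKM, and the OXCT1mKO libraries had 1.80 and 1.89 RPKM. Both OXCT1mKO libraries were above both controls, by less than for Klrk1 and Ncr1. The log2 fold change of 0.38 ± 0.15 (95% interval -0.02 to 0.78) did not pass (limma adjusted p 0.114). The annotated gene Gm44511 shares 8931 bases of the Klrb1c span on the same strand, so the reads of the pair are uncertain.

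RefSeq start regions of build GRCm38.p6, 250 bases before to 50 bases after the start, were available for 7 of the 10 genes. Those of the 3 called genes are shown because Klrk1 and Ncr1 rose together and Eomes, a T-box factor itself, fell. Both strands were searched for a T-box motif (GGTGTGA), a RUNX motif (TGTGGT) and a STAT motif (TTCNNNGAA), and capitals mark the matches.
Klrk1 (chr6:129623815-129624114, strand minus): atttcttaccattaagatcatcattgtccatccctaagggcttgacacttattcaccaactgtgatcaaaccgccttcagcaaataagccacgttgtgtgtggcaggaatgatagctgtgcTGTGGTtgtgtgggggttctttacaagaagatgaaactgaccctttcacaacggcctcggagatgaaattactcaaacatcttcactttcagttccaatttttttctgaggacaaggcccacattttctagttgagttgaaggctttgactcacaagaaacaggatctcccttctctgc
Ncr1 (chr7:4337465-4337764, strand plus): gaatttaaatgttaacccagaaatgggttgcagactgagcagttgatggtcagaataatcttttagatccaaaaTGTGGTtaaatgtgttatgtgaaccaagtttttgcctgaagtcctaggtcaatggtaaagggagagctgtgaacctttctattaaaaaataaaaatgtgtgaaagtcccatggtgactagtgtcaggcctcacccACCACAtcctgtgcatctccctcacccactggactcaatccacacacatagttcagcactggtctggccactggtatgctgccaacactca
Eomes (chr9:118477939-118478238, strand plus): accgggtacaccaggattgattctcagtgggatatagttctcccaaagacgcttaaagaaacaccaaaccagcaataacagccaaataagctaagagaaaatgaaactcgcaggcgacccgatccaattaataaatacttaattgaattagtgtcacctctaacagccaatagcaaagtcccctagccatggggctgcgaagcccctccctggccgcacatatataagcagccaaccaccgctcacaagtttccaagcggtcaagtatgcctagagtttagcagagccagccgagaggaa
The Klrk1 window held 1 RUNX match, which began 129 bases before the start. The Ncr1 window held 2, beginning 176 bases before the start on the gene's strand and 41 bases before it on the other strand. The Eomes window held 0 matches of the 3 motifs. Of all 32851 start regions of this length, 16.8% held the RUNX motif, 3.98% the T-box motif and 8.3% the STAT motif. Klrb1c and Klrc1 each held 1 RUNX match as well, and so did the more upstream of the 2 windows of Klre1, although these genes were not called. No T-box or STAT match was found in the windows of these 7 genes. A match describes the letters of the window only.

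Klrd1 and Klrc1, which encode the shared chain and the inhibitory partner of the CD94 receptors, did not pass. Klrd1 encodes CD94, the shared chain of receptors that read the class I molecule Qa-1, and lies on the plus strand at chr6:129591782-129598775. The controls had 11.7 and 10.05 RPKM, and the OXCT1mKO libraries had 7.14 and 10.6 RPKM. The groups overlapped, since OXCT1mKO 2 lay between the controls. Between the groups the log2 fold change was -0.28 ± 0.20 (95% interval -0.80 to 0.23, limma adjusted p 0.308).

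Klrc1 encodes NKG2A, the inhibitory partner of CD94, and lies on the minus strand at chr6:129666015-129678973. It measured 7.28 and 3.97 RPKM in the control pair and 3.40 and 8.68 RPKM in the OXCT1mKO pair. Each group held a high and a low library, and OXCT1mKO held both the lowest and the highest value. Its log2 fold change was 0.03 ± 0.45 (limma adjusted p 0.969). The 95% interval of -1.13 to 1.18 leaves room for a rise as large as that of Klrk1 (1.17) and for a fall nearly as large. The value was -0.34 without control 2 and -0.54 without OXCT1mKO 2, and 0.39 and 0.59 without control 1 and OXCT1mKO 1.

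Klre1 encodes a lectin-like receptor chain that pairs with the products of Klri1 and Klri2, and lies on the plus strand at chr6:129577905-129585827. It measured 6.90 and 4.41 RPKM in the control pair and 2.88 and 3.56 RPKM in the OXCT1mKO pair. Both OXCT1mKO libraries were below both controls, but the controls differed from each other by more than the gap between the groups. Its difference of -0.63 ± 0.22 on the log2 scale (95% interval -1.20 to -0.07) did not pass (limma adjusted p 0.0803). It was called without control 2 (-0.91, limma adjusted p 0.0247) and was -0.36 without control 1. Klrg1, an inhibitory receptor for cadherins at chr6:122270596-122282882 on the minus strand, measured 0.948 and 0.767 RPKM in control and 0.484 and 0.955 RPKM in OXCT1mKO. The groups overlapped at this low level. Without the filter on low genes its log2 fold change was -0.12 ± 0.17 (limma adjusted p 0.659).

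Of the transcription factors, Eomes fell and Tbx21 did not pass. Eomes lies on the plus strand at chr9:118478212-118486132. The controls had 1.77 and 2.65 RPKM, and the OXCT1mKO libraries had 0.847 and 0.936 RPKM. Both OXCT1mKO libraries were below both controls and were close to each other. The mean fell from 2.21 ± 0.619 to 0.891 ± 0.0632 RPKM (SD, n = 2), a ratio of 0.403. The log2 fold change was -0.75 ± 0.18 (SE, 95% interval -1.23 to -0.28) with a limma adjusted p of 0.0374, and with a pseudocount of 0.1 it was -1.20. The antisense gene Gm33460 shares 574 bases with Eomes, and with the strand setting of the counting not given their reads cannot be told apart there.

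Tbx21 encodes T-bet, the T-box factor that acts beside Eomes, and lies on the minus strand at chr11:97098071-97115331. It measured 5.95 and 3.04 RPKM in the control pair and 1.91 and 3.01 RPKM in the OXCT1mKO pair. The groups were just apart, with control 2 and OXCT1mKO 2 nearly level. On the log2 scale the difference was -0.63 ± 0.31 (95% interval -1.44 to 0.17, limma adjusted p 0.171). It became -0.24 without control 1 and -1.02 without control 2, where it was called (limma adjusted p 0.0432). Il2rb, the chain shared by the receptors of IL-2 and IL-15, lies on the minus strand at chr15:78479256-78495271. It measured 27.4 and 22.98 RPKM in the control pair and 12.7 and 24.8 RPKM in the OXCT1mKO pair. OXCT1mKO 1 stood low, while OXCT1mKO 2 lay between the controls. The log2 fold change was -0.47 ± 0.31 (95% interval -1.29 to 0.34, limma adjusted p 0.286), and it was -0.02 without OXCT1mKO 1 and -0.93 without OXCT1mKO 2.

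**Figure D2:**
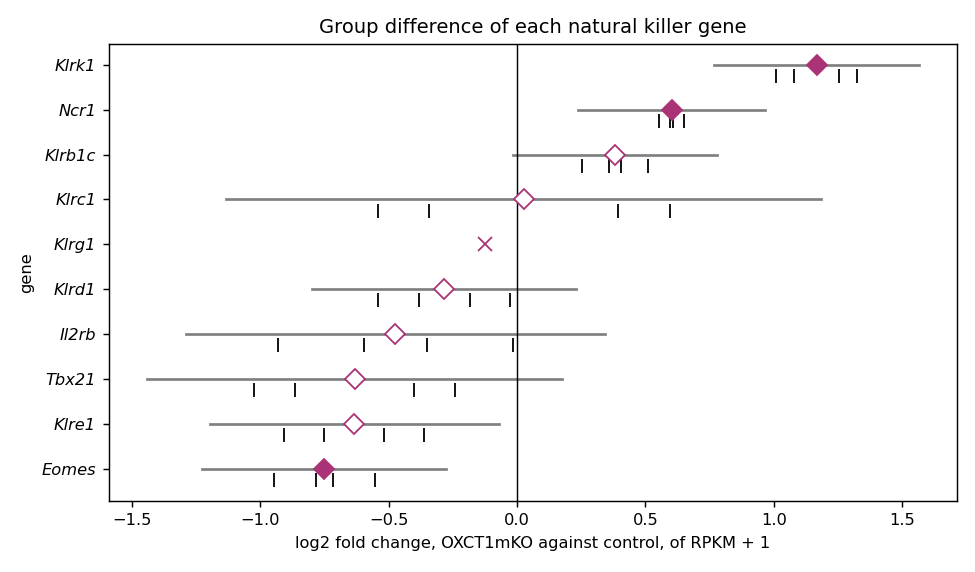
Log2 fold change of RPKM + 1 of each natural killer gene, OXCT1mKO against control (diamonds, filled where the limma adjusted p is under 0.05), with 95% intervals as lines and the values without each library in turn as ticks. The cross is Klrg1, from the fit without a filter on low genes, and the ticks of Klrc1 lie on both sides of 0.

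The calls rested on both OXCT1mKO libraries. Without OXCT1mKO 1 the limma adjusted p was 0.104 for Klrk1, 0.171 for Ncr1 and 0.176 for Eomes, and without OXCT1mKO 2 it was 0.0796, 0.158 and 0.138, in fits that called 1 and 10 genes of the whole table. Ncr1 was also not called without control 1 (0.0686) or with the replicate number as a block (0.0571), and Eomes not without control 2 (0.0681) or without the filter on low genes (0.074). The fold changes stayed between 1.01 and 1.32 for Klrk1, 0.55 and 0.65 for Ncr1 and -0.95 and -0.55 for Eomes with each library left out in turn.

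Of the 10 genes, 7 had their lowest value in OXCT1mKO 1, which were Klrd1, Klrc1, Klre1, Klrg1, Eomes, Tbx21 and Il2rb. The highest value lay in OXCT1mKO 2 for 5 of the 10, in control 1 for 4 and in control 2 for 1. The T cell markers were lowest in OXCT1mKO 1 for 13 of 14 genes, with a median log2 fold change of -1.15. The share of all tested genes lowest in a given library was not computed, so these counts are a description. Of the 14, 5 passed (35.7%), each of them lower in OXCT1mKO, against 16.4% of all tested genes called downward. Of these 5, limma called 2 without control 1 (Cd3d and Lat), 1 without the filter on low genes (Lat) and 0 without either OXCT1mKO library, all 5 keeping an unadjusted p under 0.05. Cd3e, a chain of the T cell receptor complex, measured 19.2 and 10.1 RPKM in control and 3.72 and 8.37 RPKM in OXCT1mKO. The part of T cell RNA in the values of genes that both lineages use was not tested.

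Levels were next set relative to 2 references within each library. Ptprc encodes CD45, which all leukocytes carry, and measured 27.7 and 28.0 RPKM in control and 62.0 and 62.4 RPKM in OXCT1mKO (log2 fold change 1.13 ± 0.08 SE, limma adjusted p 0.0127). Relative to Ptprc, Ncr1 was 0.0237 and 0.0275 in the controls and 0.0256 and 0.0258 in OXCT1mKO. The OXCT1mKO values fell between the controls, and the log2 difference of the ratio was 0.01. Klrk1 relative to Ptprc was 0.106 and 0.0771 in the controls and 0.104 and 0.118 in OXCT1mKO, and these overlapped too. The other 8 genes were all lower relative to Ptprc in both OXCT1mKO libraries than in both controls. Ptprc itself rose by 1.13, while the median over all tested genes was 0.0045, so an unchanged gene is also lower relative to Ptprc. The share of all tested genes that are lower in this way was not computed. Eomes relative to Ptprc went from 0.064 and 0.0946 to 0.0136 and 0.015, a log2 difference of -2.44.

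Relative to Ncr1, 7 of the other 9 genes were lower in OXCT1mKO with no overlap, and Klrk1 and Klrc1 overlapped. Ncr1 itself rose, with a ratio of 2.24, so a gene with no change of its own is also lower relative to it. The share of all tested genes that are lower relative to Ncr1 was not computed. There were 2.70 and 3.44 Eomes RPKM for each Ncr1 RPKM in the controls and 0.533 and 0.582 in OXCT1mKO, a log2 difference of -2.45. The ratio of Eomes to Ncr1 was therefore above 1 in both controls and below 1 in both OXCT1mKO libraries. It combines the fall of Eomes with the rise of Ncr1, both given above, and is not a separate result. For Tbx21 the ratio was 9.07 and 3.95 in the controls and 1.21 and 1.87 in OXCT1mKO. With 2 libraries against 2, the exact two-sided permutation test cannot go below 0.333, which is the value of all 15 non-overlapping ratios among the 19 compared (0.422 after Benjamini-Hochberg adjustment). These ratios are therefore a description.

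**Figure D3:**
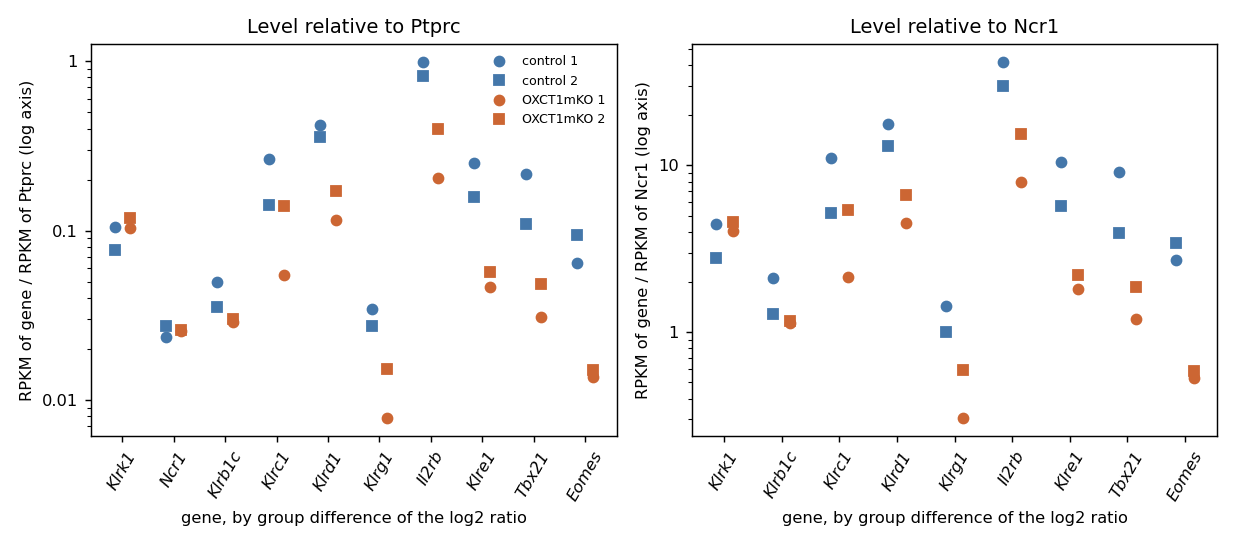
RPKM of each natural killer gene divided by that of Ptprc (left) or Ncr1 (right) in the same library, on log axes, with genes ordered by their group difference. The ratios of Klrk1 and Ncr1 to Ptprc overlap between the groups, while both Eomes ratios of each OXCT1mKO library lie below those of both controls.

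Most of the lectin-like receptor genes lie in a single stretch of chromosome 6, the natural killer gene complex. The table held 27 Klr genes there, from Klrb1a to Klra2, of which 15 were tested. In that stretch 5 rose, 1 fell and 9 did not pass, against 32.8% of all tested genes called, 16.4% in each direction. Klrk1, Klrc2 and Klri1 rose, while Klre1, Klrd1, Klrc1 and Klri2, which lie beside or between them, did not pass. Klrc2, which encodes NKG2C, the activating partner of CD94, lies at chr6:129647496-129660689 and measured 0.544 and 0.416 RPKM in control and 1.93 and 2.50 RPKM in OXCT1mKO. Klri1 lies at chr6:129697218-129717132 and measured 0.498 and 0.383 RPKM in control and 1.63 and 2.13 RPKM in OXCT1mKO. Both were low in each control, like Klrk1, and their log2 fold changes were 1.11 ± 0.16 (limma adjusted p 0.0145) and 0.99 ± 0.16 (limma adjusted p 0.0173). With a pseudocount of 0.1 they were 1.99 and 1.87, against 1.42 for Klrk1, and the ratios of the group means were 4.61 and 4.26. Klri2, the other chain that pairs with the Klre1 product, measured 1.14 and 0.918 RPKM in control and 0.642 and 1.42 RPKM in OXCT1mKO, which overlapped.

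At the end of the stretch, the Ly49 genes of the Klra family moved in both directions. Klra2, which lies 832348 bases beyond Klra1, rose by 1.54 ± 0.36, from 6.53 ± 3.85 to 19.4 ± 0.352 RPKM (SD, n = 2). The cells were sorted as macrophages, and the part of macrophage RNA in the Klra2 values was not tested. The pseudogene Klra13-ps fell by 0.55 on the log2 scale. Klra3, Klra8 and Klra9 had log2 fold changes of -0.84, -0.36 and -0.43 and did not pass. Klrb1b, an inhibitory receptor of the NK1.1 family that binds the Clec2d product, rose from 5.87 ± 2.92 to 14.7 ± 3.61 RPKM. The genes of the Klra, Klrb1 and Klrc families are near copies of one another, so the split of reads among them is uncertain.

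**Figure D4:**
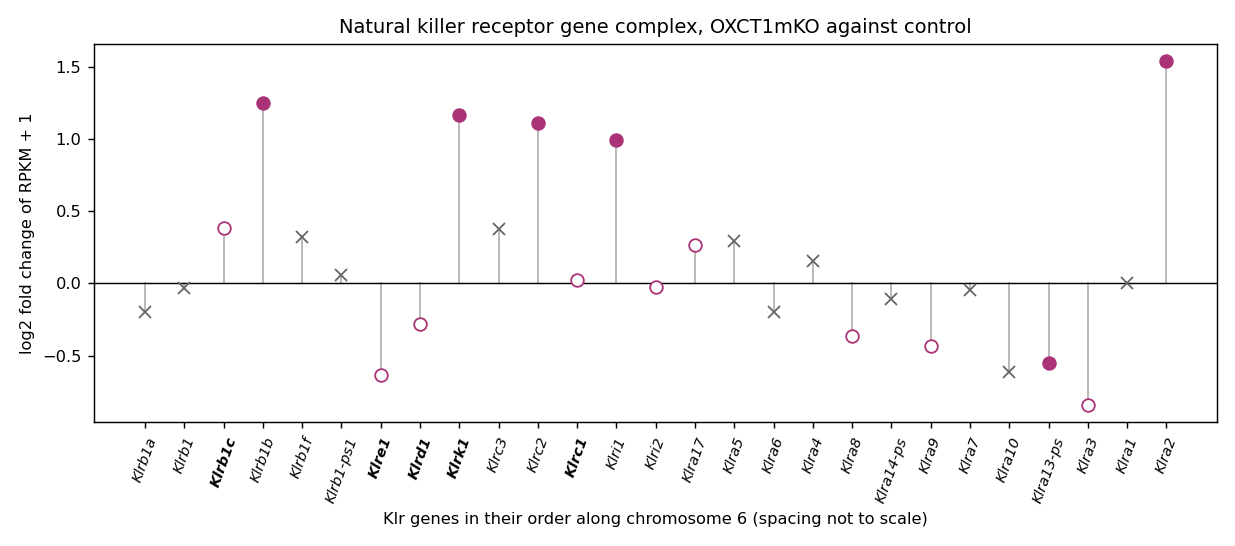
Log2 fold change of RPKM + 1, OXCT1mKO against control, of the 27 Klr genes of the complex in their order along chromosome 6 (spacing not to scale). Filled circles passed the limma threshold, open circles did not, crosses were below 1 RPKM on average and come from the fit without a filter, and bold names are genes described here. Klrk1, Klrc2, Klri1, Klrb1b and Klra2 are the filled circles above 0, and Klra13-ps is the one below 0.

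Genes that work with these receptors came from 7 lists, whose calls come from the same fit and stand against 32.8% of all tested genes. The share of tested genes called was 2 of 8 for the ligands, 31.8% for the adaptors and kinases, 37.5% for the transcription factors, 44.4% for the lectin-like receptors, 46.2% for the cytokine genes, 46.7% for the effector genes and 7 of 14 for the other surface receptors. Of 9 tested lectin-like receptors beyond the 10 genes, 4 passed and rose (Klrc2, Klri1, Klra2 and Klrb1b), with a median log2 fold change of 0.26. Of 14 other surface receptors, 6 rose and 1 fell. Slamf7, a self-binding receptor of natural killer and myeloid cells, rose from 2.59 ± 0.851 to 14.0 ± 1.89 RPKM, and Cd244, its relative known as 2B4, from 2.27 ± 0.485 to 5.18 ± 0.221 RPKM (SD, n = 2). Tnfsf10, the death ligand TRAIL, rose by 1.04 ± 0.10 and Spn by 0.83 ± 0.15. The gene that fell was Cd160, a receptor of natural killer and T cells, which went from 2.55 ± 0.38 to 1.03 ± 0.399 RPKM.

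Of 22 receptor adaptors and proximal kinases, 6 rose, 1 fell and 15 did not pass, a share near that of all genes. Plcg2 rose by 1.41 ± 0.09, Syk by 1.25 ± 0.19, Tyrobp by 0.97 ± 0.11 and Fyn by 0.58 ± 0.10. The list went in both directions. Its groups did not overlap for 18 of the 22 genes, against 74.7% of all tested genes. Of the 22, 11 were higher in OXCT1mKO and 7 lower, against 37.6% and 37.0%. Tyrobp encodes DAP12, an adaptor of activating receptors that macrophages also use, and measured 182 and 160 RPKM in control and 342 and 327 RPKM in OXCT1mKO. Lat, an adaptor of T cell receptor signalling, fell by 1.76 on the log2 scale. Hcst, which encodes DAP10, an adaptor of NKG2D, was singled out after its values were seen. It measured 23.2 and 14.8 RPKM in control and 12.1 and 9.55 RPKM in OXCT1mKO. Both OXCT1mKO libraries were below both controls for Hcst while they were above them for Klrk1, and the Hcst difference of -0.73 ± 0.24 did not pass (limma adjusted p 0.0723).

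Of 8 tested ligand genes, 2 rose and 6 did not pass. Clec2d, whose product is bound by the inhibitory receptor of Klrb1b, rose from 37.4 ± 1.10 to 74.1 ± 8.13 RPKM (SD, n = 2). Cdh1, E-cadherin and a ligand of KLRG1, rose from 2.16 ± 0.273 to 5.79 ± 1.23 RPKM. The Rae1 ligands of NKG2D, Raet1a to Raet1e, were all under 0.6 RPKM in every library and are near copies of one another.

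Of 13 tested cytokine, cytokine receptor and signalling genes, 6 rose and 7 did not pass. Il12b, a subunit of interleukin 12, which activates natural killer cells, rose by 1.49 ± 0.21. Il7r rose by 1.27 ± 0.28, Jak1 by 0.74 ± 0.12 and Stat5b by 0.58 ± 0.09. Il15ra, which presents IL-15 to cells that carry Il2rb, rose from 2.68 ± 0.39 to 4.36 ± 0.0871 RPKM. Il2rg, the common chain that pairs with Il2rb, rose from 36.6 ± 1.78 to 48.4 ± 3.22 RPKM, whereas Il2rb overlapped between the groups.

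Of 16 tested transcription factors beside the T-box pair, 5 rose and 1 fell. Zeb2, a factor of natural killer cell and macrophage maturation, rose by 1.38 ± 0.12, Runx3 by 1.10 ± 0.14, Nfil3 by 0.76 ± 0.11 and Irf2 by 0.61 ± 0.09. Tcf7, a factor of T cells and early natural killer cells, fell from 22.2 ± 3.48 to 12.995 ± 0.92 RPKM (SD, n = 2).

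Of 15 tested effector genes, 6 fell and 1 rose, with a median of -0.58. Ccl4 (-0.75 ± 0.10), Gzmk (-1.82 ± 0.40), Ctsw (-1.25 ± 0.28) and Ifng (-1.93 ± 0.44) fell, and the granzyme inhibitor gene Serpinb9 rose by 0.83 ± 0.11. The lowest library was OXCT1mKO 1 for 12 of the 16 effector genes in the table, again without a share over all tested genes. In these macrophage sorts, Ccl4 averaged 338 RPKM in control, against 0.713 RPKM for Ncr1. Of the 14 T cell markers, 5 were also called downward and 0 upward. The part of macrophage and T cell RNA in the values of the effector genes was not tested.

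The 7 lists held 39 called genes. The groups did not overlap for any of the 39, so leaving out 1 library could not change their direction. Without control 1, 8 of them were not called by limma, among them Cd160, Il7r, Gzmk, Ctsw and Ifng, and without control 2, 5 were not called (Klrb1b, Cd160, Il2rg, Il15ra and Ctsw). Without OXCT1mKO 1 and OXCT1mKO 2, limma called 0 of the 39, with 37 and 36 at an unadjusted p under 0.05. With the replicate block, Il2rg, Il15ra and Gzma were not called. Without the filter on low genes, 23 of the 39 were called, all 39 having an unadjusted p under 0.05, and those not called included Klra2, Klrb1b, Cd160, Spn, Il2rg, Il15ra, Il7r, Tcf7, Gzmk, Ifng and Ctsw. Of the 6 effector genes that fell, 1 was then called.

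**Figure D5:**
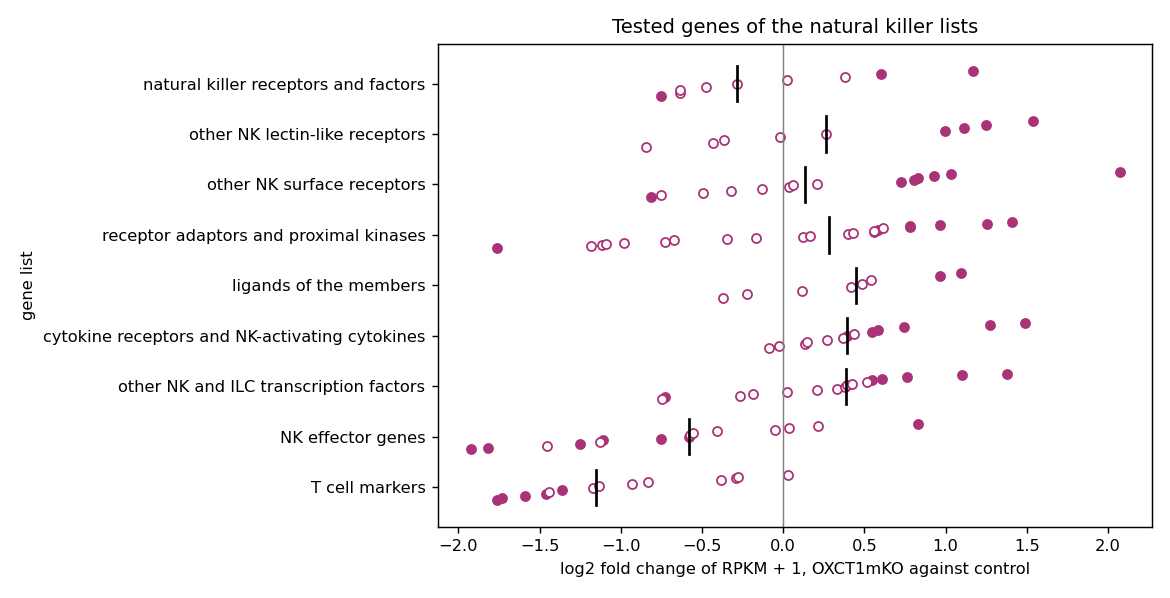
Log2 fold change of RPKM + 1, OXCT1mKO against control, of each tested gene in 9 lists, filled where the limma adjusted p was under 0.05, with a bar at each list's median. The T cell markers and effector genes lie mostly below 0, with medians of -1.15 and -0.58, and the 9 tested natural killer receptors and factors spread on both sides of 0.

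Markers that part conventional natural killer cells from type 1 innate lymphoid cells were mixed. Of 14 tested conventional genes, 3 rose (Zeb2, Irf8 and Ly6c2) and 3 fell (Khdc1a, Eomes and Gzma), with a median of 0.39. Khdc1a fell from 55.5 ± 3.53 to 27.2 ± 6.97 RPKM (SD, n = 2). Of 13 tested type 1 innate lymphoid genes, 4 rose (Tnfsf10, Itga1, Il7r and Itgae) and 1 fell, with a median of 0.33. The share called was 42.9% for the conventional genes and 38.5% for the type 1 genes. Of all tested genes 32.8% were called, 16.4% in each direction. The integrin gene Itga1 rose from 4.16 ± 0.96 to 8.97 ± 0.432 RPKM, and the activation marker gene Cd69 fell from 44.3 ± 15.3 to 15.7 ± 1.46 RPKM. Zeb2, Irf8, Ly6c2 and Itga1 are also expressed by myeloid or endothelial cells. Beside these values, 6 of 9 dendritic cell markers rose, their sums going from 105 and 116 RPKM in the controls to 190 and 239 RPKM in OXCT1mKO, and 6 of 7 endothelial markers rose, from 673 and 798 RPKM to 1320.0 and 1175 RPKM. Without the filter on low genes, Eomes, Khdc1a, Gzma, Ly6c2, Il7r, Cd69 and Itgae were not called, and without either OXCT1mKO library limma called 0 of the conventional and type 1 genes that had passed, at least 4 in each list keeping an unadjusted p under 0.05. The part of these cells in the result was not tested.

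The genes whose centred log2(RPKM + 1) profile over the 4 libraries lay nearest to that of Ncr1, by Euclidean distance, were Spen (0.0142), Col4a3bp (0.0236), Tmem50b (0.0249), Mcur1 (0.0255) and Dgkq (0.0321). For Eomes they were Madcam1 (0.031), 9030625G05Rik (0.0725), Cand2 (0.0735), Gm33104 (0.0774) and Tcf7 (0.0824). With 4 libraries many genes share such a profile, and the distances are a description. None of the 10 genes was among those nearest to Ncr1 or Eomes.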

How the data were processed

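The authors deposited RPKM values (reads per kilobase of transcript, relative to library size) in a table with 1 row per gene symbol and 1 column for each of the 4 libraries. The tools named in the submitters' processing notes are STAR 2.10 and R 4.0.5, with build mm10 and no role stated. Not given in the sources used here are the counting tool, its strand setting, the gene models and the depth. The labels' protocol also names a microarray, whereas the values are RPKM.

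Columns were matched to samples by title. RPKM are not counts, so values were transformed to log2(RPKM + 1), and the 12523 genes with a mean of at least 1 RPKM were fitted in limma 3.58.1 (R 4.3.3) with a variance trend and no further scaling. Tests were two-sided, adjusted by Benjamini-Hochberg over all tested genes at 0.05. The fit was tested on simulated data. Relative depths came from the commonest ratio, within 0.1%, among genes with a mean up to 0.05 RPKM.

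The 10 genes, the gene lists and the naming rule were chosen with earlier results of these data known. Named were all 10 genes, up to 4 called genes per list and direction with the smallest p, and the 5 genes nearest in profile to Ncr1 and Eomes. Other genes were named outside this rule, among them Il15ra, Il2rg and Hcst. The Klr genes of chromosome 6 and the ratios without each library were added after values were seen. Positions came from GENCODE M21 (GRCm38) and start regions from RefSeq (GRCm38.p6). Python 3.11.15, scipy 1.17.1 and matplotlib 3.10.9 were used. Alternatives covered pseudocount, filter, trend, scaling, each library left out and a replicate block.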

Additional observations from a re-analysis of the deposited data

How the results depend on the processing

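With pseudocounts of 0.1 and 0.5, without the variance trend, with median ratio scaling and with equal RPKM sums without globin genes, the called genes stayed Klrk1 and Ncr1 upward and Eomes downward. The last scaling moved the split of all calls from 2058 higher and 2052 lower to 2718 higher and 1478 lower. Without the filter on low genes, limma called 1191 genes upward and 1149 downward, and of the 10 genes 2 upward and 0 downward (1 downward at an unadjusted p under 0.05). A minimum mean of 5 RPKM left 3 of the 10 genes, of which limma called 0 upward and 0 downward, also at an unadjusted p under 0.05, so Klrk1, Ncr1 and Eomes had no value there.

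With each library left out in turn, limma called 0 to 2362 genes upward and 1 to 2056 downward over the whole table, 0 to 2 of the 10 genes upward and 0 to 2 downward. The lone library of a group was then assumed to vary as the other group does. At an unadjusted p under 0.05, 2 to 3 of the 10 genes were higher and 1 to 3 lower in these fits. Klrc1 changed direction, between -0.54 and 0.59. Same-numbered libraries share a number only, and their deviations correlated at 0.0545 across genes. With that number as a replicate block, 1 gene was called upward (Klrk1) and 1 downward (Eomes), and 1871 and 1735 in the whole table. The cause of these losses was not tested. Absolute depth is unknown, which limits what can be said of Klrg1, Ncr1 and other genes near 1 RPKM.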
